A study of Homo sapiens with 6 samples.

Results

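Lipoprotein lipase and 9 genes of lipid uptake and storage were followed in HL-60 cells, an established, RAS-mutated line of human acute myeloid leukemia cells at a promyelocyte-like stage. The 10 genes, LPL, LMF1, LMF2, GPIHBP1, ANGPTL4, VLDLR, LRP1, CD36, LIPA and PLIN2, were picked by symbol from a table of 58884 genes. LPL was chosen because its level differed about 44-fold in the comparison made here, so its values are a description without a test, and the other 9 were listed for their roles beside it. They were listed with results of the same comparison known, so the adjusted p-values given for them are those of the fit over all genes and are not independent evidence. Of the 10 genes, 7 passed the expression filter.

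Knockdown cells carried a lentiviral short hairpin RNA (shRNA) against EZH2 (3 libraries, numbered 1, 3 and 4), and their controls carried a scrambled shRNA in the same kind of vector (3 libraries, numbered 3, 4 and 5). EZH2 is the enzyme of a Polycomb complex that methylates histone H3 at silenced genes. Cells of both groups had been selected with puromycin, which was removed 2 days before the experiment, and were held in 0.05% serum for 24 hours before polyadenylated RNA was sequenced. The sample labels speak of a knockdown and the design text of a knock-out; the lower but remaining EZH2 mRNA given next is why knockdown is used here. The groups are stably transduced populations of 1 line, the labels name no hairpin sequence, and it is not stated whether the libraries were made from separate cultures or transductions.

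Total counts lay between 50809853 and 85074624 in the EZH2 shRNA libraries and between 39717343 and 51622861 in the control libraries. EZH2 had 79.46, 83.21 and 77.25 CPM (read counts scaled to library size) in EZH2 shRNA libraries 1, 3 and 4, against 147.6, 150.5 and 150.3 CPM in control libraries 3, 4 and 5. The targeted mRNA was thus lower but not absent (log2 fold change -0.90, SE 0.04, edgeR adjusted p = 3.22e-11). The myeloperoxidase gene MPO, a promyelocyte marker, averaged 9416 ± 210 CPM in EZH2 shRNA and 9795 ± 435.4 CPM in control cells (SD, n = 3 each), whereas ELANE, another granule gene of promyelocytes, had 27 reads in EZH2 shRNA and 5 reads in control cells.

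Lipoprotein lipase is a secreted enzyme that splits the triglycerides of chylomicrons and very low density lipoproteins into fatty acids. It folds in the endoplasmic reticulum with the help of LMF1, is carried across capillary walls by GPIHBP1, and is inhibited by ANGPTL4. Fatty acids can enter cells through CD36, particles can be taken up whole by receptors such as VLDLR and LRP1, their lipids are then split in lysosomes by LIPA, and stored triglyceride is held in droplets coated by PLIN2. Among blood cells, macrophages are a known source of the enzyme.

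LPL was the gene among these 10 with the largest difference, while its partners were higher, lower, without a call or nearly without reads. Of the 9 partners, 6 could be tested. LRP1 and PLIN2 rose and VLDLR fell, and LMF1, LMF2 and LIPA did not pass (edgeR quasi-likelihood test, Benjamini-Hochberg adjusted p under 0.05). Over all 16859 genes tested the share called was 46.7%, with 23.8% higher and 22.9% lower, and since the genes were listed with this comparison known, nothing is read from 3 of 6. The median log2 fold change of the 6 partners was -0.08, against 0.01 over all genes tested. ANGPTL4 and GPIHBP1 had no read in any library, and CD36 had 7 reads in all.

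**Figure D1:**
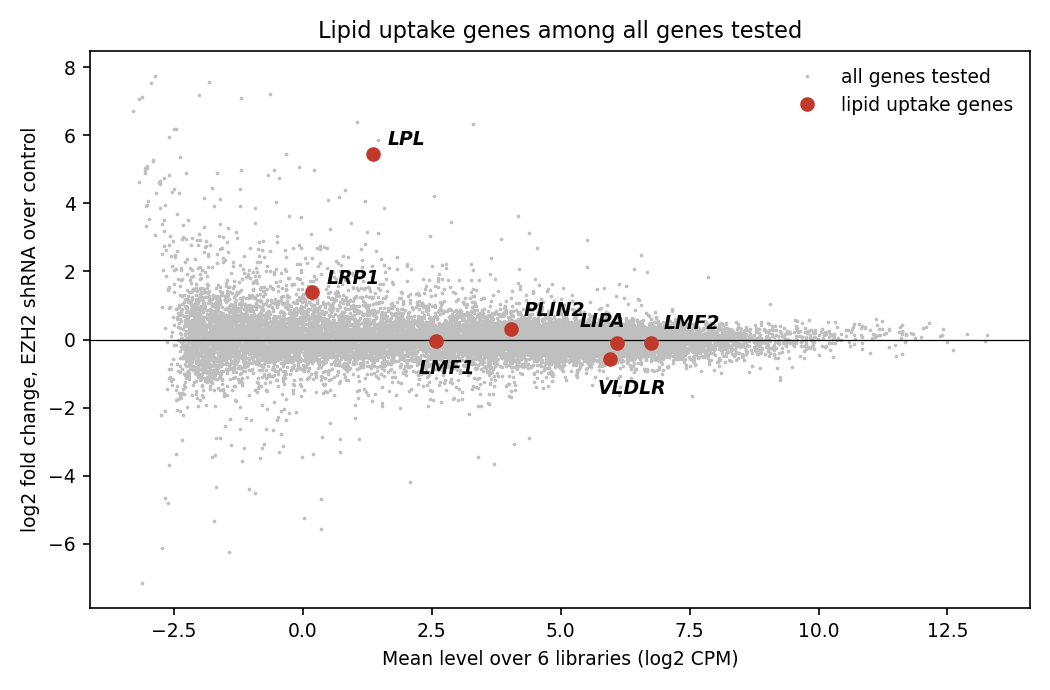
Mean level over 6 libraries (x axis, log2 CPM) against the log2 fold change of EZH2 shRNA over control (y axis) for all 16859 genes tested (grey) and the 7 lipid uptake genes that passed the expression filter (red). LPL lies at 5.46, LRP1 at 1.39 and VLDLR at -0.57, and the other 4 lie between -0.11 and 0.32.

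LPL (ENSG00000175445; GRCh38 chromosome 8, 19901717 to 19967259, plus strand) had 841, 847 and 1438 reads in EZH2 shRNA libraries 1, 3 and 4, against 20, 11 and 19 reads in control libraries 3, 4 and 5. Scaled to library size, that was 16.89, 15.81 and 16.93 CPM in EZH2 shRNA cells and 0.51, 0.21 and 0.45 CPM in control cells. The 3 EZH2 shRNA libraries lay close together and the 3 control libraries were spread more widely, with a coefficient of variation of 3.87% in EZH2 shRNA and 40.3% in control cells, and the groups did not overlap. The fitted log2 fold change was 5.46 (SE 0.16). The ratio of the summed reads, 3126 in EZH2 shRNA and 50 in control cells, corrected for library size, was 44.5, with an exact 95% counting interval of 33.7 to 60.1 that covers counting error only. On log2 of FPKM + 1, a scale that shortens the changes of weak genes, the difference was 2.19.

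Per kilobase of gene length, LPL stood at 4.05, 3.81 and 4.07 FPKM (fragments per kilobase of gene length, scaled to library size) in EZH2 shRNA libraries 1, 3 and 4, against 0.123, 0.0509 and 0.108 FPKM in control libraries 3, 4 and 5. Among all genes tested this placed it at percentile 52.7 of the FPKM levels in EZH2 shRNA cells and at percentile 5.09 in control cells. LPL therefore had a middling level in the EZH2 shRNA libraries and a low level among measured genes in the control libraries. By log2 fold change it was number 16 from the top of 16859 genes.

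**Figure D2:**
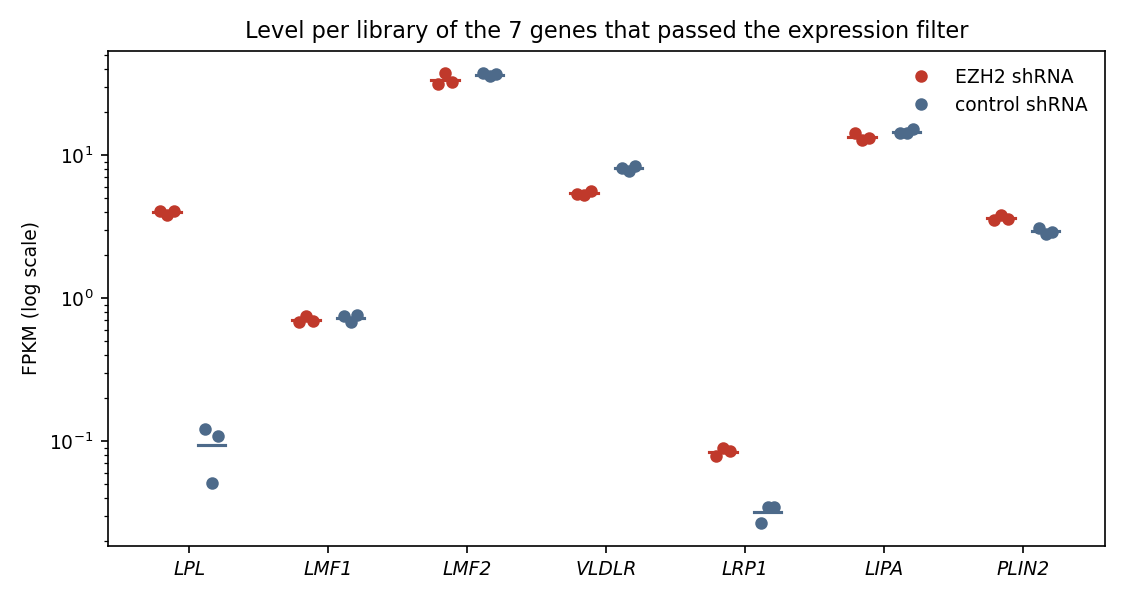
FPKM (y axis, log scale) in each library for the 7 genes that passed the expression filter, with EZH2 shRNA libraries in red on the left and control libraries in blue on the right; points are libraries and bars are group means. LPL sits between 3.81 and 4.07 FPKM in EZH2 shRNA and between 0.0509 and 0.123 FPKM in control libraries, while LMF1, LMF2 and LIPA overlap between the groups.

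The order of the genes by FPKM was LMF2, LIPA, VLDLR, LPL, PLIN2, LMF1, LRP1 and CD36 in EZH2 shRNA cells, with GPIHBP1 and ANGPTL4 listed at 0. In control cells it was LMF2, LIPA, VLDLR, PLIN2, LMF1, LPL, LRP1 and CD36, with the same genes listed at 0. LPL and PLIN2 were the closest neighbours in EZH2 shRNA cells, at 3.98 ± 0.15 and 3.63 ± 0.15 FPKM (SD, n = 3 each), and their ranges, 3.81 to 4.07 for LPL and 3.51 to 3.80 for PLIN2, lay side by side without overlap. No other pair of neighbours above CD36 overlapped in range in either order. In control cells the lowest LPL library, 0.0509 FPKM, lay close above the highest LRP1 library, 0.0349 FPKM. CD36 was not separated from the genes at 0 in either group.

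LMF1 (ENSG00000103227; chromosome 16, 853634 to 981318, minus strand), the lipase maturation factor of the endoplasmic reticulum, had 5.66, 6.18 and 5.72 CPM in EZH2 shRNA libraries 1, 3 and 4, against 6.18, 5.58 and 6.34 CPM in control libraries 3, 4 and 5. The groups overlapped (log2 fold change -0.04, SE 0.10, edgeR adjusted p = 0.768). LMF2 (ENSG00000100258; chromosome 22, 50502949 to 50507702, minus strand), a relative of LMF1 whose part in lipase folding is less clear, was the most abundant of the 10 genes. It had 96.6, 114.8 and 99.7 CPM in EZH2 shRNA libraries 1, 3 and 4, against 113.8, 109.2 and 112.7 CPM in control libraries 3, 4 and 5. EZH2 shRNA library 3 lay above every control library and the other EZH2 shRNA libraries lay below, so the groups overlapped and the gene did not pass (log2 fold change -0.11, SE 0.06, edgeR adjusted p = 0.128). Without EZH2 shRNA library 3, LMF2 was at -0.20 and passed (edgeR adjusted p = 0.000451), and with the median of its chromosome removed it was at -0.17 (adjusted p = 0.0211).

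The ratio of LPL to its maturation factor LMF1 in FPKM was 5.94, 5.10 and 5.90 in EZH2 shRNA libraries 1, 3 and 4, against 0.163, 0.0753 and 0.141 in control libraries 3, 4 and 5. LPL was thus above LMF1 in every EZH2 shRNA library and below it in every control library. Against LMF2, the ratio averaged 0.119 ± 0.015 in EZH2 shRNA and 0.0026 ± 0.00099 in control cells (SD, n = 3 each), so that LMF2 exceeded LPL in both groups. Against PLIN2 it was 1.10 ± 0.0816 in EZH2 shRNA and 0.0317 ± 0.0119 in control cells. These ratios are descriptions, since they contain the value that LPL was chosen for.

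**Figure D3:**
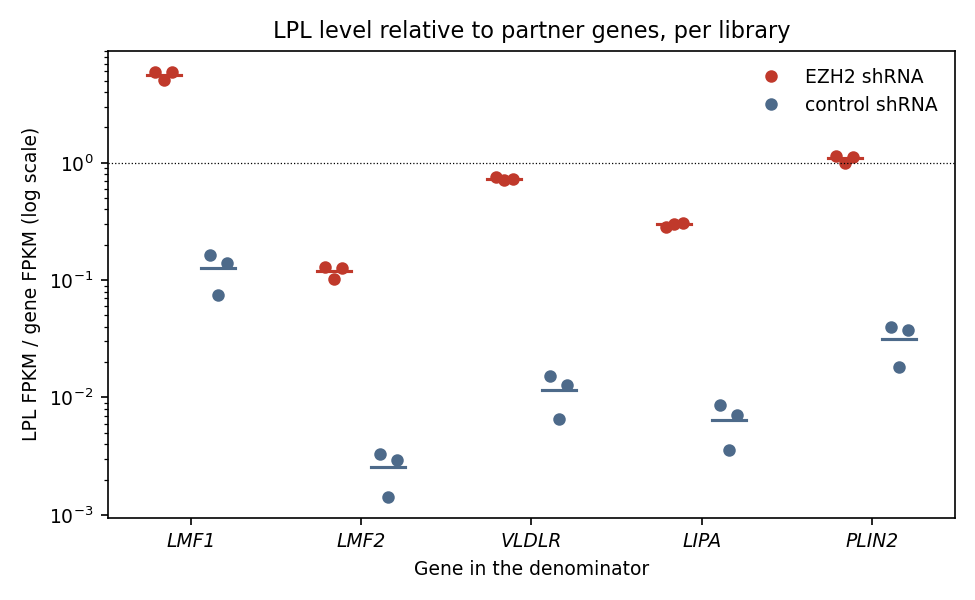
Ratio of LPL FPKM to the FPKM of LMF1, LMF2, VLDLR, LIPA and PLIN2 (y axis, log scale) in each library, EZH2 shRNA in red on the left and control in blue on the right; bars are group means and the dotted line marks a ratio of 1. In EZH2 shRNA cells the mean ratio to LMF1 was 5.65 and that to VLDLR 0.733, against 0.126 and 0.0116 in control cells.

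The inhibitor ANGPTL4 and the capillary anchor GPIHBP1 were not detected. ANGPTL4 (ENSG00000167772; chromosome 19, 8363289 to 8374370, plus strand) and GPIHBP1 (ENSG00000277494; chromosome 8, 143213218 to 143217170, plus strand) had 0 reads in all 6 libraries. A count of 0 allows up to 3 counts, which over a group corresponds to 0.0159 CPM in EZH2 shRNA and 0.0224 CPM in control cells, so levels under these limits were not detectable at this depth. ANGPTL8, which takes part in inhibiting the lipase in other tissues, also had 0 reads, and so did APOC3 and APOA5, apolipoproteins that modulate it. APOC2, the apolipoprotein that activates the lipase, had 1 read in EZH2 shRNA and 0 reads in control cells. Others on the same list of lipase regulators were read. FURIN and PCSK6, convertases that can cleave the lipase, held 7907 and 3273 reads in EZH2 shRNA cells and 5120 and 2822 reads in control cells. Corrected for library size, FURIN rose slightly (log2 fold change 0.13, edgeR adjusted p = 0.0322). PCSK6 fell (log2 fold change -0.28, edgeR adjusted p = 0.00226). ANGPTL6, of the same family as ANGPTL4, held 493 reads in EZH2 shRNA and 166 reads in control cells and rose (log2 fold change 1.05, edgeR adjusted p = 0.000182). These 7 genes from the list of regulators are named after their values were seen.

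VLDLR (ENSG00000147852; chromosome 9, 2621787 to 2660056, plus strand), a receptor that binds triglyceride-rich particles and the lipase itself, had 50.96, 49.86 and 53.02 CPM in EZH2 shRNA libraries 1, 3 and 4, against 75.70, 73.35 and 78.81 CPM in control libraries 3, 4 and 5. It fell in EZH2 shRNA cells, and every EZH2 shRNA library lay below every control library (log2 fold change -0.57, SE 0.04, edgeR adjusted p = 2.91e-08). An exact permutation test of VLDLR alone, two-sided, gave p = 0.1, which is the lowest value possible for 3 libraries against 3. The antisense gene VLDLR-AS1, which overlaps VLDLR, averaged 1.20 ± 0.11 CPM in EZH2 shRNA and 2.42 ± 0.14 CPM in control cells (SD, n = 3 each). VLDLR-AS1 fell too (edgeR adjusted p = 9.14e-05). The authors' strand setting is not given in the sources used here, so reads of the pair cannot be told apart, though VLDLR-AS1 held only 551 reads in all.

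LRP1 (ENSG00000123384; chromosome 12, 57128493 to 57213351, plus strand), a large endocytic receptor for lipoprotein remnants and many other ligands, had 82, 101 and 152 reads in EZH2 shRNA libraries 1, 3 and 4, against 22, 38 and 31 reads in control libraries 3, 4 and 5. That was 1.65, 1.89 and 1.79 CPM in EZH2 shRNA cells and 0.56, 0.73 and 0.73 CPM in control cells, without overlap. LRP1 rose (log2 fold change 1.39, SE 0.21, edgeR adjusted p = 2.95e-05), but its level per length stayed very low, 0.0845 ± 0.0059 FPKM in EZH2 shRNA and 0.0322 ± 0.0047 FPKM in control cells (SD, n = 3 each). On the FPKM + 1 scale its difference was 0.07 (limma adjusted p = 0.0246). The 5′ end of LRP1 overlaps STAT6 on the other strand, which held 55002 reads and was lower in EZH2 shRNA cells (log2 fold change -0.24, edgeR adjusted p = 0.000157).

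CD36 (ENSG00000135218; chromosome 7, 80369575 to 80679277, plus strand), the fatty acid translocase and scavenger receptor of monocytes and macrophages, had 4, 0 and 1 reads in EZH2 shRNA libraries 1, 3 and 4, against 1, 1 and 0 reads in control libraries 3, 4 and 5. The ratio of the sums, 5 over 2 reads corrected for library size, was 1.78 with an exact 95% counting interval of 0.291 to 18.7. Neither a rise nor a fall could be seen at this depth.

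LIPA (ENSG00000107798; chromosome 10, 89213569 to 89414557, minus strand), the lysosomal acid lipase that splits cholesteryl esters and triglycerides taken up with lipoproteins, had 70.00, 62.48 and 65.18 CPM in EZH2 shRNA libraries 1, 3 and 4, against 69.88, 69.95 and 74.14 CPM in control libraries 3, 4 and 5. The groups overlapped through EZH2 shRNA library 1, and the gene did not pass (log2 fold change -0.11, SE 0.05, edgeR adjusted p = 0.0624). LIPA passed under 4 of 15 alternatives, among them without EZH2 shRNA library 1 (-0.17, edgeR adjusted p = 0.00388). With the median of its chromosome removed it was at -0.07 (edgeR adjusted p = 0.259). Leaving out control library 5 put it at -0.09 (edgeR adjusted p = 0.232). The span given for LIPA in the table contains IFIT1, IFIT2 and IFIT3 on the other strand, interferon-induced genes that fell by 3.46, 3.66 and 3.08 on the log2 scale in EZH2 shRNA cells. Together these 3 genes held 2381 reads in EZH2 shRNA and 17500 reads in control cells, beside 12368 reads of LIPA in EZH2 shRNA and 9553 reads in control cells. They thus held more reads than LIPA in control cells and fewer in EZH2 shRNA cells, and the share of LIPA reads that may belong to them was not tested.

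PLIN2 (ENSG00000147872; chromosome 9, 19108375 to 19149290, minus strand), which coats lipid droplets and is a common sign of stored neutral lipid, had 17.78, 19.13 and 18.14 CPM in EZH2 shRNA libraries 1, 3 and 4, against 15.44, 14.16 and 14.54 CPM in control libraries 3, 4 and 5. It rose by 1.25-fold, with every EZH2 shRNA library above every control library (log2 fold change 0.32, SE 0.07, edgeR adjusted p = 0.000825). Of the 6 partners tested, VLDLR, LRP1 and PLIN2 were those whose groups did not overlap. Over all genes tested the groups did not overlap for 54.9%.

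The 250 bases before the RefSeq start (GRCh38.p14) are shown for the 3 partners that passed the test and for ANGPTL4, which had no read. RefSeq windows were found for 8 of the 10 genes, and these are 4 of the 5 with a single start. Capitals mark the letters GGGCGG (the GC box), TATAAA and CACGTG (the E-box), on either strand; CCAAT and AGGTCA (a nuclear receptor motif) were searched too and had no match in these 4.
LRP1, chr12:57128233-57128482, plus strand: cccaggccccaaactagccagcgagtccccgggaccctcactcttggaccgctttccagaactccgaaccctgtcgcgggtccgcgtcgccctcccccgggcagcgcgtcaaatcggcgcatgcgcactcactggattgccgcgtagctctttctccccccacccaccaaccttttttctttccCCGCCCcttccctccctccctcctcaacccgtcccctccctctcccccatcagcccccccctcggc
PLIN2, chr9:19127493-19127742, minus strand: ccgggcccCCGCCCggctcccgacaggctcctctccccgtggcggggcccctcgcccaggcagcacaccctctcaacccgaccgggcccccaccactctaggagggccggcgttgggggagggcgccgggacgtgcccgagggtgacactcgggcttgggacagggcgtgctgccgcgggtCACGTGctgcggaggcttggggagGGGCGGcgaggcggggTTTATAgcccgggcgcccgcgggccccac
VLDLR, chr9:2621537-2621786, plus strand: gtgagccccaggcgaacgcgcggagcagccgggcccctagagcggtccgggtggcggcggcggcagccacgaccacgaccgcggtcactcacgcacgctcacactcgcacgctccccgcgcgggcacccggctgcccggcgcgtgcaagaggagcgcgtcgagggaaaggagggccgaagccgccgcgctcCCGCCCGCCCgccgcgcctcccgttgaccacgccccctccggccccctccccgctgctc
ANGPTL4, chr19:8363905-8364154, plus strand: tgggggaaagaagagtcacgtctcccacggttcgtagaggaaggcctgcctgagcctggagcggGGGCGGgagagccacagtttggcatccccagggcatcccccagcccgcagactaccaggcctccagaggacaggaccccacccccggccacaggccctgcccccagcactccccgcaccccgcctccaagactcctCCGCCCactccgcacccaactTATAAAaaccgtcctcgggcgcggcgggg

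All 4 windows were rich in G and C, with 67.6% for LRP1, 78.0% for PLIN2, 78.8% for VLDLR and 68.8% for ANGPTL4, against a median of 58.0% over 35114 RefSeq windows. They held 20, 28, 41 and 16 CpG dinucleotides in that order of genes, against a median of 11. The partners without a call had such windows too. The single window of LMF2 had 84.8% G and C and 34 CpG dinucleotides. The 2 windows of LMF1 held 28 and 27 CpG dinucleotides, and the 3 windows of LIPA held 29, 1 and 16. VLDLR, which fell, had more CpG dinucleotides than 98.3% of windows, and PLIN2, which rose, more than 84.1%. The letters TATAAA stood near the start of PLIN2 and of ANGPTL4 and in 10.7% of all windows, and CACGTG stood in that of PLIN2 and in 6.35% of all windows. GGGCGG was found in all 4 and in 42.6% of all windows; its 2 matches in VLDLR overlap each other. Matches on the opposite strand appear as their reverse complement. The 6 windows of CD36, the gene with 7 reads, held 1 or 2 CpG dinucleotides each. These are descriptions of letters and say nothing of binding.

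Few genes near LPL were measurable. Of 31 other genes within 1 Mb of LPL, 2 passed the expression filter. INTS10, a subunit of the Integrator complex 49.6 kb away, was at 47.41 ± 1.53 CPM in EZH2 shRNA and 71.19 ± 1.54 CPM in control cells (SD, n = 3 each), and it fell (log2 fold change -0.59, edgeR adjusted p = 1.46e-08). ATP6V1B2, a proton pump subunit, was at -0.10 (edgeR adjusted p = 0.0902). The median log2 fold change of chromosome 8 was 0.04 over 362 genes. The chromosomes of the other tested members had medians between -0.04 and 0.06.

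The 5 genes whose centred log2 CPM profile over the 6 libraries lay closest to that of LPL by Euclidean distance were TEX15, SCG2, GABBR1, IL5RA and LHFPL6, at distances between 1.03 and 1.34. SCG2, a secretory granule protein, averaged 20.14 ± 1.22 CPM in EZH2 shRNA and 0.34 ± 0.07 CPM in control cells (SD, n = 3 each), beside 16.54 ± 0.64 CPM in EZH2 shRNA and 0.39 ± 0.16 CPM in control cells for LPL. IL5RA, the interleukin 5 receptor chain of eosinophils, averaged 17.76 ± 0.66 CPM in EZH2 shRNA and 0.21 ± 0.06 CPM in control cells. None of the 5 belongs to the lipid lists. The distance is dominated by the shift between the groups, for which LPL was chosen, so it picks genes with a shift of like size. Their log2 fold changes lay between 4.97 for TEX15 and 6.39 for IL5RA. The 5 names are therefore a description, and shared regulation with LPL was not tested.

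Markers of other cell types were read in the same libraries, because in bulk RNA fewer cells of a type and less RNA per cell cannot be told apart. Of 12 eosinophil markers 9 were tested, and 8 of them rose while none fell, beside 23.8% higher and 22.9% lower over all genes tested. CCR3, SIGLEC8 and ALOX15 did not pass the expression filter. They held 8, 9 and 14 reads in EZH2 shRNA and 4, 0 and 1 reads in control cells. The summed level of the 12 eosinophil markers was 382.9 to 408.6 CPM in EZH2 shRNA and 160.6 to 163.6 CPM in control cells. RNASE2, which is also on the promyelocyte list, and CLC held the most of these reads in EZH2 shRNA cells. Of 21 macrophage and monocyte markers 8 were tested, of which 5 rose, among them FCGR1A and CSF1R, and 2 fell, CD4 and ITGAX. The summed level of the 21 markers was 57.01 to 61.20 CPM in EZH2 shRNA and 64.21 to 67.19 CPM in control cells. Most of it was CD4, with means of 30.50 CPM in EZH2 shRNA and 47.76 CPM in control cells. FCGR1A went the other way, with means of 20.30 CPM in EZH2 shRNA and 8.23 CPM in control cells. C1QA, C1QB, C1QC, SIGLEC1 and TREM2 were at 0 throughout, with 7 reads of CD14 in each group. The part of the eosinophil and macrophage markers in the LPL result was not tested.

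Of 13 adipocyte markers in the table, 4 were tested, of which SLC2A4 and ADIPOR2 rose and ACACB fell. Their summed level was 235.0 to 243.5 CPM in EZH2 shRNA and 220.8 to 226.7 CPM in control cells, most of it ADIPOR2, which most tissues express. The defining adipocyte genes ADIPOQ, LEP, FABP4 and LIPE had no read in any library. Of 12 endothelial markers 3 were tested and 1 rose, EGFL7, with a summed level of 3.34 to 4.04 CPM in EZH2 shRNA and 1.20 to 1.95 CPM in control cells, and CDH5, CLDN5, ROBO4 and EMCN were at 0. Of 13 promyelocyte markers 12 were tested, of which 7 rose and 2 fell, CTSG and LYZ. The 13 markers summed to 12210 to 12450 CPM in EZH2 shRNA and 11760 to 12570 CPM in control cells. Most of each sum was MPO, which had no call. Among those that rose, PRTN3 averaged 96.48 CPM in EZH2 shRNA and 21.8 CPM in control cells. Over all genes tested 46.7% were called (23.8% higher, 22.9% lower), beside 75% of tested adipocyte, 33.3% of endothelial and 75% of promyelocyte markers.

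A wider set of 202 genes of lipoprotein lipolysis, lipid uptake and storage was read in 9 lists made by function, and 200 of them were in the table. Of these, 133 were tested, 39 rose and 42 fell, 60.9% in all beside 46.7% of all genes tested, with a median log2 fold change of 0.01 like that of all genes. The calls thus went both ways in about equal number. Chromosomes 2 and 11, whose medians were -0.30 and -0.27, carried 25 of the 133 genes, with 3 higher and 17 lower. The other chromosomes carried 108, with 36 higher and 25 lower, and include chromosomes 13 and 17, whose medians were 0.20 and 0.15. The share called over all genes of each chromosome is not given here, so nothing is read from this split.

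**Figure D4:**
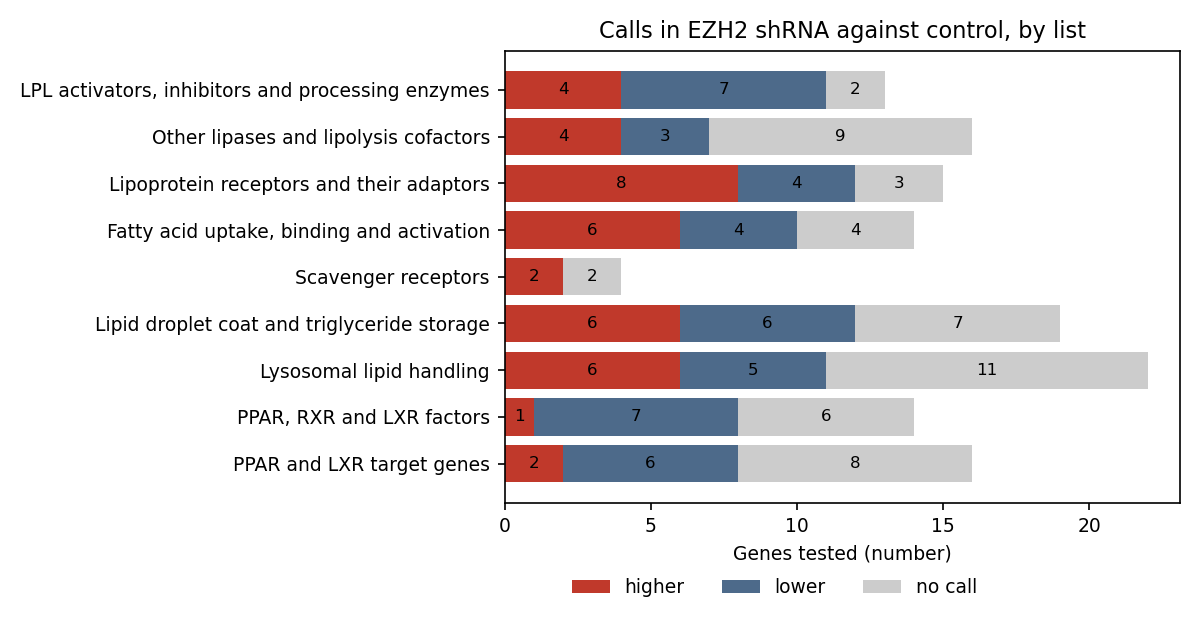
Number of tested genes (x axis) of each of the 9 lists that were higher (red), lower (blue) or had no call (grey) in EZH2 shRNA against control cells, by edgeR adjusted p under 0.05. Receptors and their adaptors had 8 higher and 4 lower, and the PPAR, RXR and LXR factors 1 higher and 7 lower. Over all genes tested 23.8% were higher and 22.9% lower.

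Among activators, inhibitors and processing enzymes of the lipase 4 of 13 tested genes rose and 7 fell (median log2 fold change -0.28). That was 84.6% called, beside 46.7% of all genes tested. SORL1, a sorting receptor that can bind the lipase inside cells, was at 153.2 ± 6.41 CPM in EZH2 shRNA and 288.6 ± 11.1 CPM in control cells (SD, n = 3 each; log2 fold change -0.91, edgeR adjusted p = 6.39e-11). With the median of chromosome 11 removed, SORL1 was at -0.64. SDC1, a heparan sulfate proteoglycan of the cell surface, fell by 0.62 on the log2 scale (by 0.32 with the median of chromosome 2 removed). SYVN1, a ubiquitin ligase that works with SEL1L in the degradation of misfolded proteins, fell by 0.49 (by 0.22 with the median of chromosome 11 removed), and SEL1L, needed for the lipase to leave the endoplasmic reticulum in mice, was at -0.04 (edgeR adjusted p = 0.405). HSPG2, the secreted proteoglycan perlecan, rose by 1.14.

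Lipoprotein receptors and their adaptors other than the members rose in 8 and fell in 4 of 15 tested cases (median 0.13). Calls thus made up 80%, beside 46.7% of all genes tested. LRP12, a small relative of LRP1, was at 6.14 ± 0.49 CPM in EZH2 shRNA and 0.57 ± 0.09 CPM in control cells (SD, n = 3 each; log2 fold change 3.42, edgeR adjusted p = 4.48e-11). MYLIP, a ubiquitin ligase that directs the VLDLR protein to degradation, rose by 0.74, and SCARB1, a receptor for high density lipoprotein, rose by 0.36. LRP8, the receptor nearest to VLDLR in structure, was at 0.04 (edgeR adjusted p = 0.586).

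Genes of fatty acid uptake, binding and activation rose in 6 and fell in 4 of 14 tested cases (median 0.02). This is 71.4% called, beside 46.7% of all genes tested. SLC27A2, a fatty acid transport protein and acyl-CoA synthetase, was at 136.0 ± 6.35 CPM in EZH2 shRNA and 59.82 ± 1.35 CPM in control cells (SD, n = 3 each; log2 fold change 1.18, edgeR adjusted p = 3.34e-12). SLC27A5 of the same family rose by 0.55. ACSL3, an acyl-CoA synthetase of lipid droplets, fell by 0.50 (by 0.21 with the median of chromosome 2 removed). DBI, the acyl-CoA binding protein, was at -0.34, a call that ended with the median of chromosome 2 removed (-0.05, adjusted p = 0.485). Among scavenger receptors 2 of 4 tested genes rose (50% called), SCARF1 by 1.88 and SCARF2 by 0.93. The SCARF2 call ended under 8 of 15 alternatives, among them without control library 3, control library 5, EZH2 shRNA library 3 or EZH2 shRNA library 4. MSR1 and MARCO, scavenger receptors of macrophages, had no read.

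Among genes of the droplet coat and triglyceride storage 6 of 19 tested genes rose and 6 fell (median -0.01). Together 63.2% were called, beside 46.7% of all genes tested. DGAT1, which makes triglyceride from diacylglycerol, was at 36.59 ± 2.97 CPM in EZH2 shRNA and 23.77 ± 1.18 CPM in control cells (SD, n = 3 each; log2 fold change 0.62, edgeR adjusted p = 5.85e-07). LPIN1, the phosphatidate phosphatase that supplies diacylglycerol, fell by 0.87 (by 0.58 with the median of chromosome 2 removed), and SOAT1, which makes cholesteryl esters, fell by 0.49. LDAH, a droplet hydrolase, was at -0.40, a call that ended with the median of chromosome 2 removed (-0.10, adjusted p = 0.124). The consecutive steps of LPIN1 and DGAT1 thus moved in opposite directions.

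Other lipases and cofactors rose in 4 and fell in 3 of 16 tested cases (median 0.04). Their share called, 43.8%, was near the 46.7% of all genes tested. ABHD6, a monoacylglycerol lipase, rose by 1.52 and DDHD2, a triglyceride lipase of neurons, by 0.69, while PNPLA8, a phospholipase, fell by 0.47. PNPLA2, the main lipase of lipid droplets, was at -0.19 (edgeR adjusted p = 0.0107), a call that ended on log2 of FPKM + 1 and without control library 4, and that turned to 0.08 (adjusted p = 0.309) with the median of chromosome 11 removed. Lysosomal genes of lipid handling rose in 6 and fell in 5 of 22 tested cases (median 0.01), with 50% called, also near that share. PSAP, the precursor of activators of sphingolipid breakdown, averaged 315.2 ± 4.50 CPM in EZH2 shRNA and 212.4 ± 6.44 CPM in control cells and rose by 0.57 (edgeR adjusted p = 5.27e-09). NEU1, a sialidase, fell by 0.34. NPC1, the cholesterol exporter of lysosomes, was at -0.07 (edgeR adjusted p = 0.155).

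Among the PPAR, RXR and LXR nuclear receptors and their cofactors 1 of 14 tested genes rose and 7 fell (median -0.16). In all 57.1% were called, beside 46.7% of all genes tested. PPARA, a fatty acid sensor, was at 29.25 ± 2.40 CPM in EZH2 shRNA and 19.20 ± 0.73 CPM in control cells (SD, n = 3 each; log2 fold change 0.61, edgeR adjusted p = 1.12e-06). Its relative PPARD was at 5.28 ± 0.37 CPM in EZH2 shRNA and 12.14 ± 0.56 CPM in control cells and fell (log2 fold change -1.19, edgeR adjusted p = 1.37e-08). The coactivators NCOA1 and NCOA2 fell by 0.65 and 0.40, NCOA1 by 0.35 with the median of chromosome 2 removed. PPARG, the receptor of adipocytes and macrophages, had 10 reads in EZH2 shRNA and 12 reads in control cells and was not tested.

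Known targets of these receptors rose in 2 and fell in 6 of 16 tested cases (median 0.02). Here 50% were called, near the 46.7% of all genes tested. CPT1A, the gate of fatty acids into mitochondria, rose by 0.47 (0.74 with the median of chromosome 11 removed). UCP2, a carrier of the inner mitochondrial membrane, was at 105.0 ± 2.88 CPM in EZH2 shRNA and 332.6 ± 10.8 CPM in control cells (SD, n = 3 each; log2 fold change -1.66, edgeR adjusted p = 1.47e-14). With the median of chromosome 11 removed, UCP2 was at -1.4. SCD, the stearoyl-CoA desaturase, fell by 0.48. HADHA, an enzyme of beta-oxidation, was at -0.39, a call that ended with the median of chromosome 2 removed (-0.10, adjusted p = 0.075). ABCA1 and ABCG1, cholesterol exporters, held 4 and 19 reads in EZH2 shRNA cells and 0 and 7 reads in control cells and were not tested.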

How the data were processed

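The authors deposited raw read counts per gene and FPKM values, with 1 column per library. Libraries were stranded and read as single ends, per the labels' protocols. The tools named in the submitters' processing notes, without a role, are STAR 2.5.2b, beside DESeq2 1.24.0, R 3.6.1 and Picard 2.18.24, on GRCh38; no source used here gives the counting program, annotation release or strand setting. Dividing the counts by the deposited FPKM and size factors gave whole gene lengths (tolerance 0.001) for 29060 of 29060 genes with a count, so both tables hold the same measurement.

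Groups came from the titles. Genes were filtered with filterByExpr, leaving 16859, and tested with the robust quasi-likelihood test of edgeR 4.0.16 (R 4.3.3, TMM factors, group as the only term, Benjamini-Hochberg threshold 0.05). CPM are counts scaled by TMM library size, fold changes have EZH2 shRNA on top, and SEs derive from the F statistic. Alternatives used limma 3.58.1 and DESeq2 1.42.0. Library pairs within groups differed by more than sampling noise (chi-square per degree of freedom 3.18 to 17.6). No source says that they are separate cultures, and p-values then reflect only library-to-library spread, possibly technical.

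Members and lists were chosen with earlier results of these data known. Names in the text were drawn from all members, EZH2, genes overlapping a member, tested genes within 1 Mb of LPL, its 5 nearest profiles, and from each list up to 4 called genes with the smallest p and up to 2 uncalled genes with the highest level. Marker genes, untested genes at or near 0, FURIN, PCSK6 and ANGPTL6 were named after their values were seen. Motif letters were searched on both strands of RefSeq windows. Some genes of the lists are not reported here by name.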

Additional observations from a re-analysis of the deposited data

How the results depend on the processing

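All 15 alternatives kept the number of genes called over all genes within 1.5 times of 7866 (6799 to 8122), and likewise the pathway genes higher (33 to 44) and lower (34 to 42). EZH2 stayed between -0.95 and -0.87 and past the threshold. LPL was at 2.19 on log2 of FPKM + 1 and at 4.41 on log2 of FPKM + 0.1, scales that by construction shrink changes of weak genes, and between 5.11 and 5.69 when single libraries were left out. The 2 partners higher and the fall of VLDLR held in all 15. The partners lower numbered 2 in place of 1 with DESeq2 size factors (LIPA, edgeR adjusted p = 0.047), library size only (LIPA, 0.0334) and chromosome medians removed (LMF2, 0.0211), and 1 to 2 when single libraries were left out; the cause was not tested. Libraries 3 and 4 share their numbers between groups, and their deviations from the group means correlated by 0.04 and 0.01. No shared deviation by number was thus visible, which cannot tell whether libraries of the same number were handled together. With the replicate block the partners lower numbered 2 (LIPA, 0.0233) and LMF1 turned to 0.02 (adjusted p = 0.922). Depth limits CD36, ANGPTL4 and GPIHBP1, which did not pass the expression filter.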
